A study of Sus scrofa with 17 samples.

Results

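The 10 genes described here are core parts and direct outputs of the circadian clock: the activators BMAL1 and NPAS2, the repressors PER2, CRY1 and CIART, the nuclear receptors NR1D1 and NR1D2, and the output factors DBP, TEF and HLF. They were taken by symbol from a table of 35670 pig genes, each symbol stood on 1 row, and all 10 passed the filter on low counts that left 15884 genes for testing. They were chosen by their log2 levels in these 17 libraries, for the opposition between BMAL1 with NPAS2 and DBP with NR1D1, so that pattern is given as a description without a test.

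The RNA came from the right ventricle of 17 pigs (Sus scrofa), a model in which pressure overload is imposed on that chamber. Every animal carried the overload, and unoperated animals were not analysed here. Mononuclear cells of umbilical cord blood, abbreviated UCB-MNC, were given as multidose treatment to 7 pigs and as a single dose to 5, while 5 pigs received vehicle. The number and size of doses, the harvest times, the time of day at harvest, and the age, strain, sex, weight and batch of each animal are not stated in the labels or series text. Each library stands for 1 animal according to the series text, so p-values refer to the spread between animals.

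The clock of mammalian cells is a feedback loop of transcription. BMAL1 pairs with CLOCK or with its relative NPAS2 and switches on the genes of the PER and CRY repressors, the NR1D receptors and the PAR bZIP factors DBP, TEF and HLF. PER and CRY proteins then block BMAL1 and its partner, and the NR1D proteins repress the genes of BMAL1 and NPAS2, so that BMAL1 RNA and DBP RNA peak at opposite times of day in many tissues, the heart among them.

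Total counts ranged from 21754800 to 61144663 per library. The tissue carried the markers of ventricular muscle, with medians of 18897 CPM (counts scaled to a common library total) for MYH7 and 14092 CPM for MYL2, while of the atrial markers MYBPHL had a median of 0 and MYL4 one of 15.9 CPM, with an atrial sum of 5.23 to 70.1 CPM per library, and the fast skeletal myosin MYH1 had a median of 0. Names of 5 libraries begin with M1 (multidose 1 to 4 and single dose 1) and those of 12 with M8 or M9. What the names and the ending stand for is not stated in the labels or series text. The 2 name classes stood apart over all genes, with first principal component scores of -62.8 to -37.1 for M1 names and 0.107 to 38.1 for M8 and M9 names, and every control had an M8 or M9 name. In bulk tissue, fewer cells of a type and less RNA per cell cannot be told apart.

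BMAL1, the factor without which the loop does not run, was most abundant in single dose 1 and vehicle control 4 and least in multidose 3. Its levels in the 5 controls were 2.82, 2.94, 2.32, 8.44 and 4.47 CPM, in the order of their replicate numbers. The 5 single-dose animals had 8.88, 3.02, 4.72, 4.41 and 3.92 CPM, and the 7 multidose animals ranged from 1.598 to 6.43 CPM with the median in between at 2.79 CPM. The groups overlapped, and the spread within a group, 3.64-fold in the controls and 4.02-fold in the multidose animals, was much of the 5.56-fold range over all libraries. The lowest level rested on 33 reads, that of single dose 1 on 193 and that of vehicle control 4 on 450.

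NPAS2, which can take the place of CLOCK as partner of BMAL1, varied over a narrower range of 2.73-fold. The controls held both its lowest and its highest level, 4.38 CPM in vehicle control 2 and 11.96 CPM in vehicle control 4. Single-dose animals had 6.05 to 9.16 CPM and multidose animals 5.04 to 10.1 CPM, with a median of 7.93 CPM, inside the span of the controls.

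PER2, a repressor that is switched on by BMAL1, ran opposite to it. The controls had 20.1, 13.6, 17.1, 4.65 and 7.72 CPM, and the single-dose animals 8.79, 11.9, 10.9, 15.1 and 11.3 CPM. Multidose animals ranged from 6.45 to 24.0 CPM with a median of 16.9 CPM. The lowest levels were in vehicle control 4 and multidose 7, which followed single dose 1 in BMAL1, and the highest in multidose 4. All 3 groups overlapped.

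The repressors CRY1 and CIART did not share this pattern. CRY1, the partner of PER2, varied 2.101-fold in all, from 5.04 CPM in multidose 3 to 10.6 CPM in single dose 1, and its level in vehicle control 4 was 10.2 CPM, so the animals high in BMAL1 were in part also high in CRY1. CIART, a repressor of BMAL1 activity, ranged from 3.35 CPM in multidose 1 to 9.98 CPM in multidose 3 and lay at 5.55 CPM in vehicle control 4 and 5.29 CPM in single dose 1, close to its median of 5.56 CPM. The RefSeq interval of CRY1 overlaps those of MTERF2 and TMEM263, and that of CIART overlaps C1orf54. The strand setting of the counting was not stated, so reads in the shared stretches cannot be assigned to a gene.

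NR1D1, the haem-binding receptor also called REV-ERB alpha, had the second largest range of the members, 8.45-fold. Its levels in the controls were 26.7, 52.3, 41.3, 44.3 and 55.6 CPM, and in the single-dose animals 6.58, 32.0, 21.2, 18.5 and 47.7 CPM. Multidose animals ranged from 16.3 to 53.7 CPM with a median of 34.1 CPM. Single dose 1 stood alone at the low end, while vehicle control 4 was in the middle of the controls although it was the lowest of all libraries for DBP, PER2 and TEF. NR1D1 lies at chr12:22263549-22274131 of Sscrofa11.1, where its RefSeq interval overlaps that of the thyroid hormone receptor gene THRA. THRA and NR1D1 had an r of -0.05 over the 17 libraries.

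NR1D2, or REV-ERB beta, had a narrower range than NR1D1, 2.61-fold. The controls had 63.2, 93.1, 95.8, 62.2 and 102.2 CPM, and the single-dose animals 45.9, 68.2, 63.7, 57.5 and 66.8 CPM. The 7 multidose animals ranged from 71.1 to 119.8 CPM with a median of 74.9 CPM. Every multidose animal was thus above every single-dose animal, and the controls overlapped both.

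DBP, a PAR bZIP activator and the classic readout of BMAL1 activity, had the widest range of the 10 genes, 16.8-fold. The controls had 9.03, 10.4, 8.47, 0.975 and 7.84 CPM, and the single-dose animals 5.43, 7.81, 6.004, 7.08 and 10.4 CPM. Multidose animals ranged from 6.59 to 16.4 CPM with a median of 8.01 CPM. The width came from vehicle control 4, where 52 reads gave a level far under the next lowest, single dose 1, while the other 4 controls lay within 7.84 to 10.4 CPM. DBP is at chr6:53986955-53993044, and no other RefSeq gene overlaps it.

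TEF and HLF, the other PAR bZIP factors, differed from each other in spread. TEF ranged 3.82-fold, from 31.0 CPM in vehicle control 4 and 35.9 CPM in single dose 1 to 118.3 CPM in vehicle control 3. HLF had the narrowest range of the members at 1.79-fold, from 23.5 CPM in multidose 7 to 42.1 CPM in multidose 3. The order of the animals by HLF therefore rests on small differences. The RefSeq interval of HLF overlaps those of LOC100736688 and LOC110256029.

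**Figure D1:**
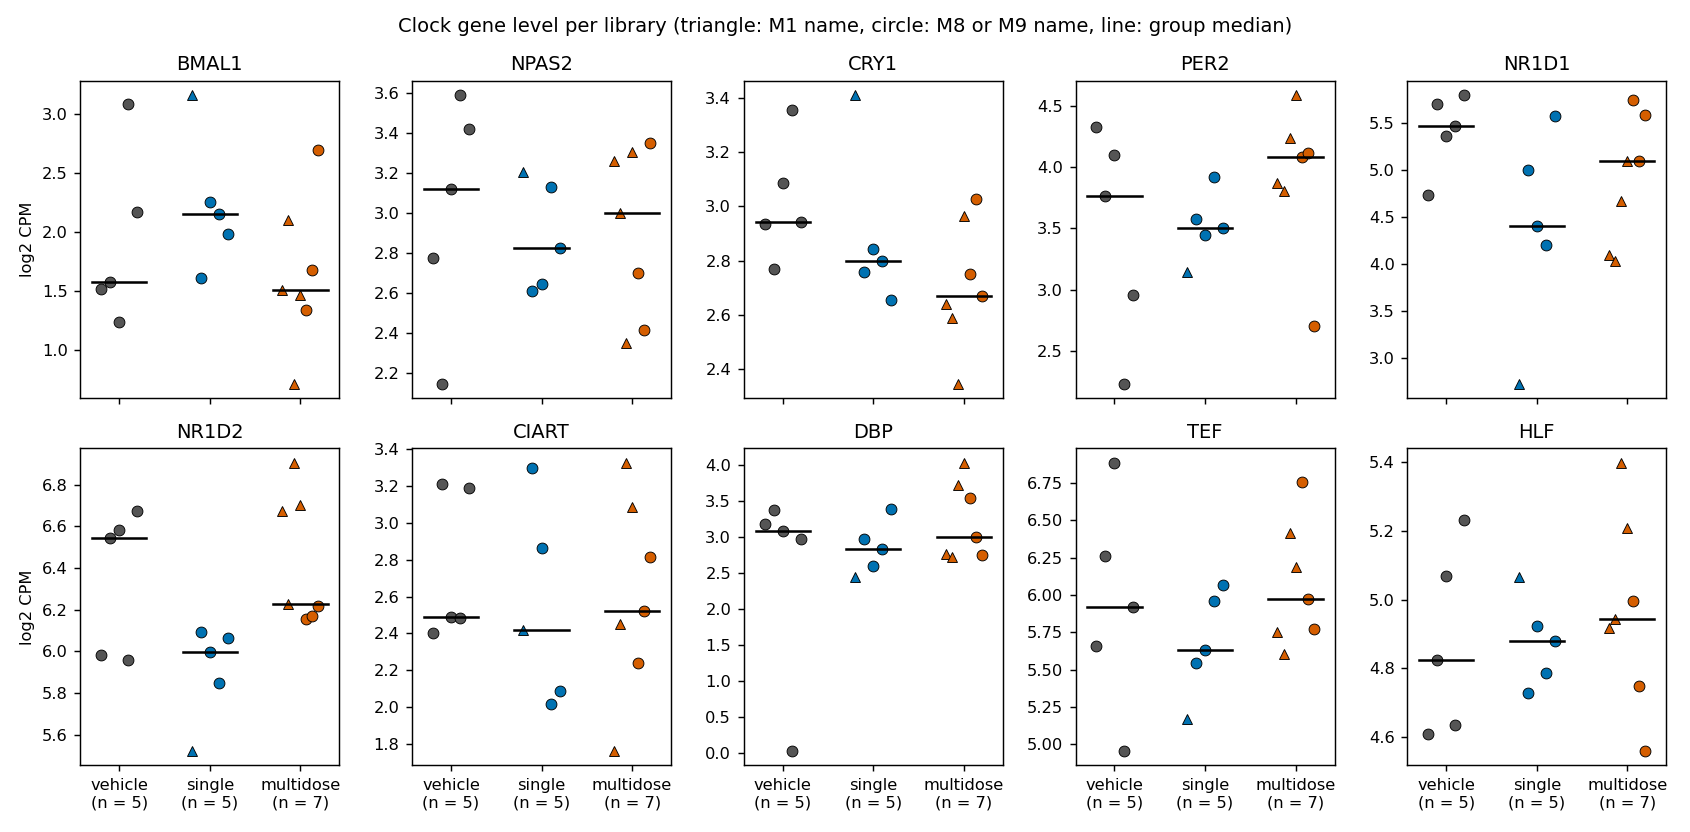
Level of each of the 10 clock genes in log2 CPM (vertical axis, a scale of its own for each gene) for the 5 vehicle, 5 single-dose and 7 multidose pigs, with 1 point per library, triangles for M1 names, circles for M8 and M9 names, and a line at the group median. DBP of vehicle control 4 lies at 0.03, against 2.45 in the next lowest library, and NR1D2 is the gene whose multidose points all lie above the single-dose points.

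Against all genes, the members differed in how far they varied between animals. The biological coefficient of variation, the spread between animals of a group beyond counting error, had a median of 0.245 over the 15884 genes. It was 0.457 for DBP, 0.445 for NR1D1, 0.429 for BMAL1 and 0.374 for PER2, which are percentiles 84.4, 83.4, 81.9 and 75.1 of all genes. TEF, CIART and NPAS2 lay at percentiles 67.8, 68.6 and 60.9. NR1D2, CRY1 and HLF varied less than the median gene, at percentiles 40.3, 32.5 and 25.2. Among the 1000 genes nearest in mean level, however, NR1D2 was at percentile 65.3, HLF at 49.9 and CRY1 at 30.3.

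The mean log2 CPM of BMAL1 and NPAS2 and the mean of DBP and NR1D1 had a Pearson r of -0.63 over the 17 libraries and a Spearman rho of -0.53. The difference of the first mean minus the second ran from -2.69 in vehicle control 2 to 0.59 in single dose 1, and it was above 0 in single dose 1 and vehicle control 4 alone. The coefficient was -0.61 among the 12 M8 and M9 libraries and -0.61 after the means of the dosing groups were removed. It lay between -0.71 and -0.52 when each library was left out in turn, the latter without vehicle control 4. Within the 7 multidose animals it was -0.26.

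The opposition lay between BMAL1 and PER2, TEF and DBP more than between BMAL1 and NR1D1. BMAL1 and PER2 had an r of -0.83, the lowest of BMAL1 with any of the 15883 other genes, and -0.89 within the M8 and M9 libraries. TEF, with -0.77, and DBP, with -0.72, were the 6th and 8th lowest, and NR1D2, with -0.68, was the 11th. The values without single dose 1 and vehicle control 4, the libraries farthest from the median of BMAL1, were -0.76 for PER2, -0.65 for DBP, -0.58 for TEF and -0.52 for NR1D2. NR1D2 had an r of -0.32 within the M8 and M9 libraries. As background, 0.0504% of the other genes had an r of at least 0.7 with BMAL1 and 0.0567% one of -0.7 or lower, and the latter 9 genes included PER2, TEF and DBP. The members were chosen with this opposition known, so the ranks and shares only describe it.

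**Figure D2:**
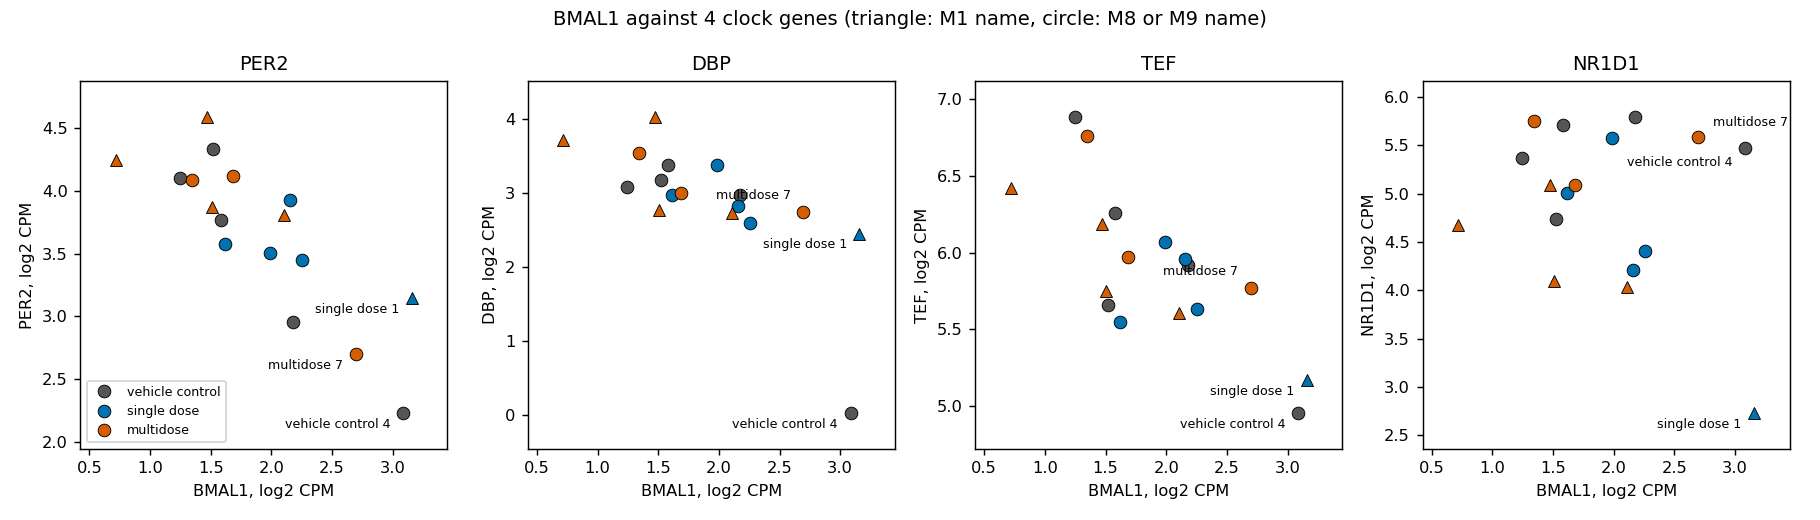
Log2 CPM of PER2, DBP, TEF and NR1D1 (vertical axes) against log2 CPM of BMAL1 (horizontal axes), with 1 point per library, coloured by dosing group, triangles for M1 names and circles for M8 and M9 names. PER2 tends to be lower where BMAL1 is higher (r = -0.83), although single dose 1, with the most BMAL1, has more PER2 than vehicle control 4 and multidose 7. DBP is low in vehicle control 4 in particular, and NR1D1 shows single dose 1 low but vehicle control 4 and multidose 7 high.

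Over all libraries NR1D1 was only loosely tied to BMAL1 and DBP by Pearson r, and the values depended on the animals included. Its r with BMAL1 was -0.27, and -0.44 after the means of the name classes were removed. It was -0.41 without vehicle control 4, 0.12 without single dose 1, 0.01 without both and -0.01 within the M8 and M9 libraries. With DBP, its partner in the pattern by which the genes were chosen, NR1D1 had an r of 0.10 and a rho of 0.42. That r was 0.54 without vehicle control 4 and 0.04 within the M8 and M9 libraries. NR1D1 was closer to TEF, with 0.46 (0.64 without vehicle control 4), and to NR1D2, with 0.41 (0.65 within the M8 and M9 libraries, 0.16 without vehicle control 4 and single dose 1). DBP went with PER2, with an r of 0.77, and with TEF, with 0.71, and without vehicle control 4 these were 0.63 and 0.66. The 3 animals with the most BMAL1 show the difference: single dose 1, vehicle control 4 and multidose 7 had 6.58, 44.3 and 47.9 CPM of NR1D1.

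Over all 45 pairs of members, the signs formed blocks. BMAL1, NPAS2 and CRY1 were positively related in all 3 of their pairs, with r from 0.43 to 0.58. The other 7 genes were positively related in 18 of 21 pairs, with a median r of 0.41, and the 21 pairs between the blocks were all negative, with a median of -0.37. Without vehicle control 4 alone 20 of these 21 were negative, with a median of -0.29, and within the M8 and M9 libraries 17 were. Without both vehicle control 4 and single dose 1 there were 15, with a median of -0.14. The block pattern thus rests in part on those animals. Within the M8 and M9 libraries without vehicle control 4 there were 12, but that set leaves out every M1 library as well. BMAL1 and CRY1, at 0.58 over all libraries, fell to 0.11 without single dose 1 and vehicle control 4. The points of all these coefficients share their library and its scaling, so they are not independent of each other.

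**Figure D3:**
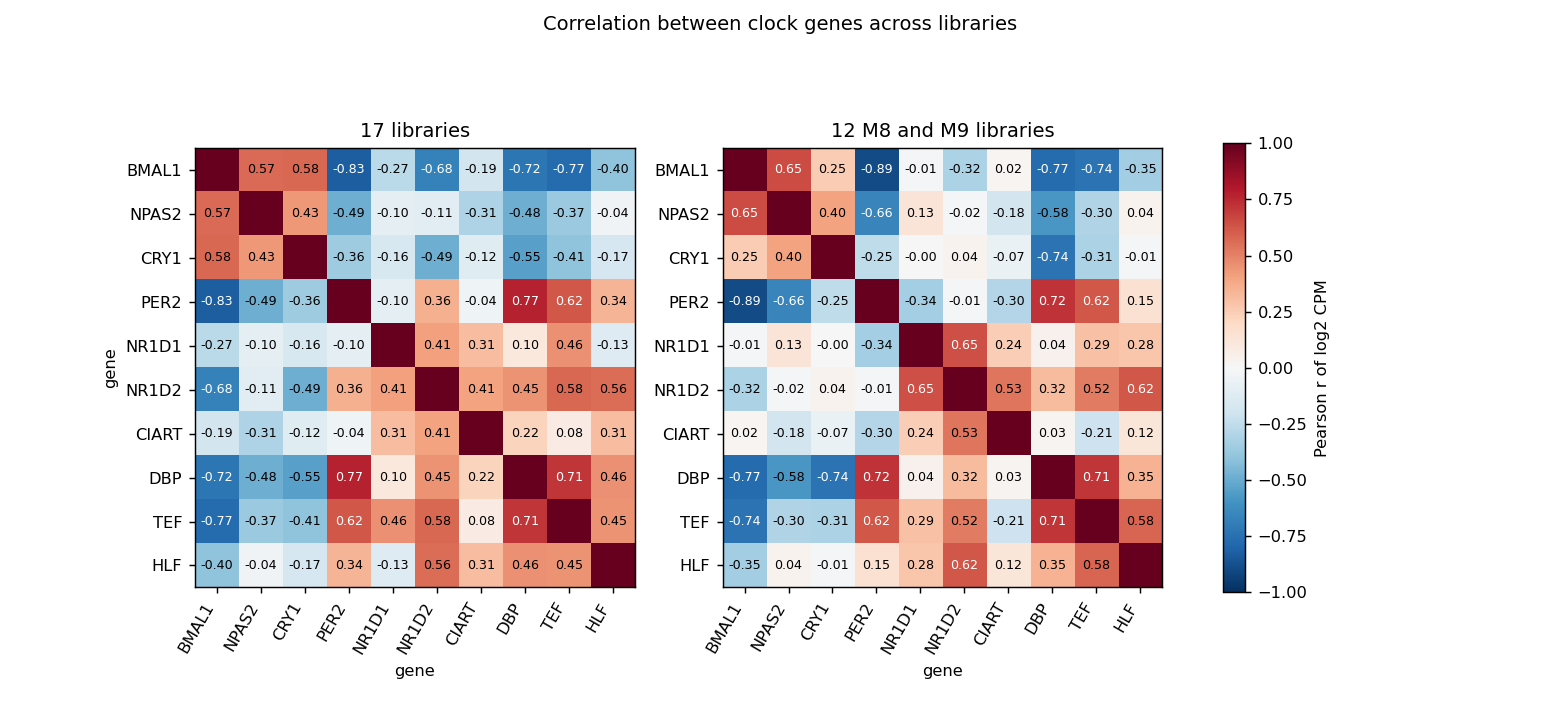
Pearson r of log2 CPM for each pair of the 10 clock genes, for all 17 libraries (left) and the 12 M8 and M9 libraries (right), with red for positive and blue for negative values on a scale from -1 to 1. BMAL1, NPAS2 and CRY1 are blue against the other genes in the left panel, and the BMAL1 row is palest at CIART and NR1D1.

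Set side by side, the libraries do not form a single order. Multidose 3 had the lowest BMAL1 and CRY1 and the highest NR1D2, HLF and CIART, and DBP was high there at 13.2 CPM. At the other end, vehicle control 4 was lowest in DBP, PER2 and TEF and highest in NPAS2, while single dose 1 was lowest in NR1D1 and NR1D2 and highest in BMAL1 and CRY1. Multidose 7, next in BMAL1, was low in PER2 at 6.45 CPM and lowest in HLF, yet NR1D1, at 47.9 CPM, and NR1D2, at 74.3 CPM, were not low there. The 3 libraries at the BMAL1 end thus came from 3 different dosing groups.

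**Figure D4:**
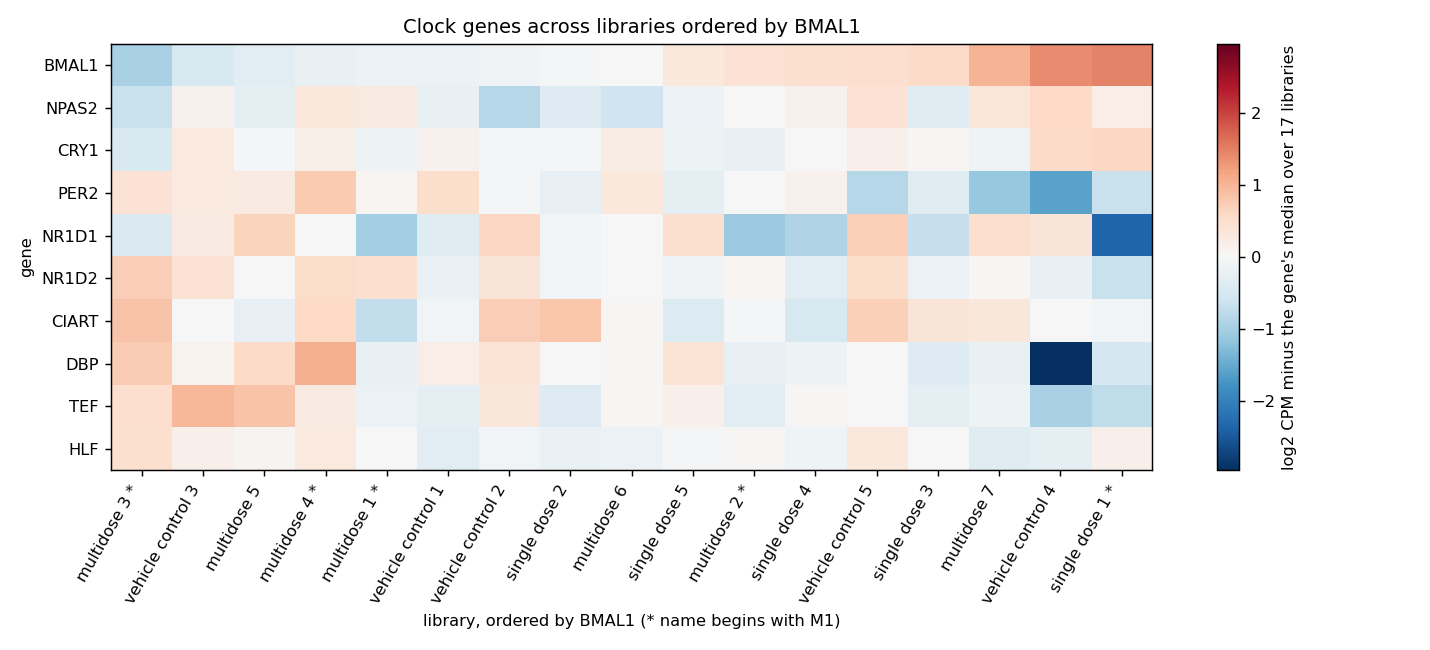
Log2 CPM of each clock gene (rows) minus that gene's median over the 17 libraries, with libraries in columns ordered by BMAL1 from lowest (left) to highest (right) and an asterisk for M1 names. The right end holds multidose 7, vehicle control 4 and single dose 1, with the strongest blue at DBP of vehicle control 4 and at NR1D1 of single dose 1.

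Vehicle control 4 also stood apart in genes outside the clock. It was the highest of all 17 libraries in 8 of 9 tested targets of the glucocorticoid receptor, the receptor of cortisol, which also acts on several clock genes. The share of all genes highest in vehicle control 4 is not given here, so this count is a description. FKBP5 was at 274.7 CPM there against 67.8 CPM in the next library, and PER1, both a clock gene and such a target, at 183.2 against 112.9 CPM. Macrophage markers summed to 532.6 CPM in vehicle control 4, the highest of all libraries, against a median of 301.3 CPM, while the cardiomyocyte sum of 64648 CPM was within the range of the others. Of the 6 macrophage markers taken singly, 2 were highest in vehicle control 4. The part of these differences in its low DBP, PER2 and TEF was not tested. Single dose 1 had 21.1 CPM of FKBP5 and the lowest PER1 level of all libraries, 28.8 CPM, so both animals high in BMAL1 were at opposite ends for PER1.

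The dosing comparisons ask whether repeated cells, a single dose or vehicle left different levels of these genes. No clock gene was called in any of the 3, at an adjusted p of 0.05 in edgeR's quasi-likelihood test with Benjamini-Hochberg adjustment, and neither was any other of the 15884 genes (0% called in each). Without adjustment, p was under 0.05 for 1997 genes and 0 members in multidose minus vehicle, for 836 genes and 1 member in single dose minus vehicle, and for 335 genes and 1 member in multidose minus single dose. DESeq2 called 8, 10 and 0 genes, limma-voom called 0 in each, and neither called a member. The comparisons share animals, so their values for a gene are not independent.

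Multidose minus vehicle gave log2 fold changes above 0 for 5 members and below 0 for 5, with a median of -0.04 against -0.0051 over all genes. CRY1 had the smallest adjusted p of the members in edgeR, 0.415, with a log2 fold change of -0.30 (SE 0.15). DBP had 0.43 (SE 0.39), NR1D1 -0.43 (SE 0.37), PER2 0.34 (SE 0.31) and BMAL1 -0.32 (SE 0.36). Without vehicle control 4, the difference of DBP was 0.15, that of PER2 0.14 and that of BMAL1 0.11, so this animal supplied much of each and the sign of BMAL1.

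Single dose minus vehicle was below 0 for 8 of the 10 members, with a median of -0.15 against 0.0025 over all genes. The values of NR1D2 and NR1D1 were -0.46 (SE 0.18) and -0.80 (SE 0.41), and both had an adjusted p of 0.891 in edgeR. Without single dose 1 they were -0.38 and -0.56, and without single dose 5 that of NR1D1 was -1.17. TEF had -0.37 (SE 0.29), which was -0.063 without vehicle control 3 and -0.54 without vehicle control 4, and BMAL1, at 0.24 (SE 0.39), was above 0 but at -0.07 without single dose 1.

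Multidose minus single dose was above 0 for 8 members, with a median of 0.24 against 0.0018 over all genes. NR1D2 stood at 0.55 on the log2 scale (SE 0.17), and its p was 12th smallest of the 15884 genes, yet its adjusted p in edgeR was 1 after rounding, as for every other member. It was the only member whose groups did not overlap, and 0.0693% of all genes, 11 in number, had groups that did not overlap in this comparison. Within the M8 and M9 libraries the NR1D2 difference was 0.17 (SE 0.18), with the 4 M1 multidose animals and single dose 1 left out. PER2 had 0.46 (SE 0.32), DBP 0.43 (SE 0.39), TEF 0.41 (SE 0.27) and BMAL1 -0.56 (SE 0.36). In the other dosing comparisons no member had groups apart, against 0.271% of all genes for multidose and vehicle and 0.875% for single dose and vehicle.

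**Figure D5:**
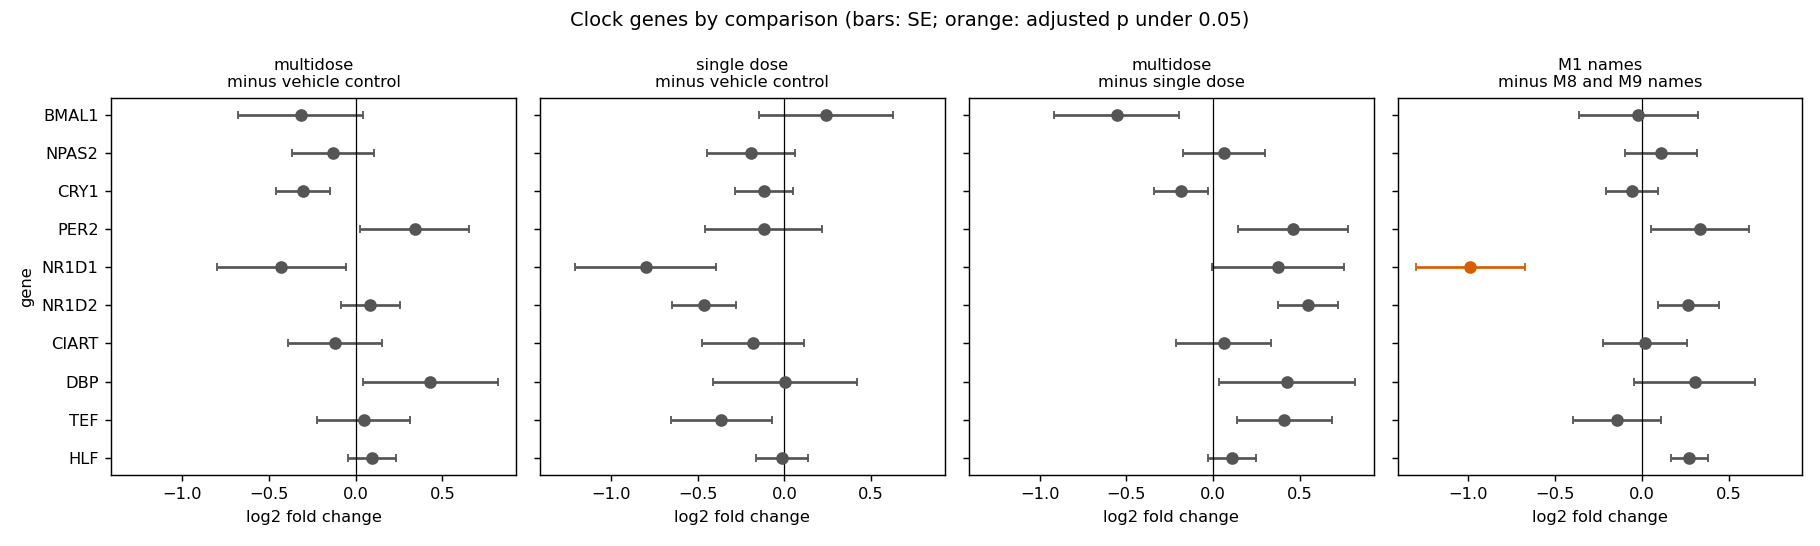
Log2 fold change of each clock gene (points) with its SE (bars) from edgeR for the 3 dosing comparisons and for M1 names minus M8 and M9 names, orange where the adjusted p was under 0.05. The single orange point is NR1D1 by library name, at -0.99, and NR1D2 of multidose minus single dose, at 0.55, has the shortest bar relative to its size among the dosing comparisons.

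By library name, 1 of the 10 clock genes was called. NR1D1 was lower in the 5 libraries with M1 names, with a log2 difference of -0.99 and an SE of 0.31 (adjusted p = 0.0296 in edgeR), while 23.8% of all genes were called, 10.9% higher and 12.9% lower. Its levels were 6.58 to 34.1 CPM under M1 names and 18.5 to 55.6 CPM under M8 and M9 names, so the classes overlapped, as they did for every member, against 5.74% of all genes whose classes did not. HLF had 0.27 (SE 0.11), with an adjusted p of 0.0687, and BMAL1, with -0.02 (SE 0.34), and CIART, with 0.02 (SE 0.24), were near 0. The median of the members was 0.06 against -0.02 over all genes.

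The NR1D1 call by library name depended on single animals. Within the 12 dosed pigs, with dosing group as a covariate, the difference was -1.27 (adjusted p = 0.0225), where 18% of genes were called. It was -0.95 with an adjusted p of 0.0713 among the 7 multidose pigs, where 4.72% were called. The adjusted p was 0.0754 without multidose 1, 0.0699 without multidose 2 and 0.0718 without single dose 1. THRA, the gene that overlaps NR1D1, had 0.05 (adjusted p = 0.799). By library name in edgeR, C1orf54, which overlaps CIART, had 0.92 (adjusted p = 0.0102). Of the genes that overlap CRY1, TMEM263 had 0.36 (adjusted p = 0.00273) and MTERF2 0.21 (adjusted p = 0.150).

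Other measures moved with NR1D1. Its r with the log2 total count was 0.74 over all libraries and 0.36 within the M8 and M9 libraries, and the 4 shallowest libraries all have M1 names without the ending _R. Multidose 4, the M1 library with that ending, had 40969168 counts and the highest NR1D1 level under M1 names, 34.1 CPM. Prefix, ending and depth are thus partly confounded. The 6 T and NK cell markers summed to 8.68 to 13.5 CPM under M1 names and 12.7 to 46.5 CPM under the others. Over all libraries, across both name classes, NR1D1 had an r of 0.49 with that sum, -0.55 with the fibroblast sum and -0.68 with the erythroid sum. These were the largest in size, and the other marker sums had r from -0.25 (Schwann cells) to 0.16 (mural cells). The part of depth and of these cell markers in the NR1D1 difference was not tested. Of the other members, HLF had the r with depth largest in size over all libraries, -0.46.

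The rest of the clock was read from a list of 20 further genes, of which 18 were matched by symbol and 17 tested. None was called in the dosing comparisons. By library name 3 of the 17 were called, beside 23.8% of all genes. The 1 that was higher was NFIL3, a repressor at the sites that DBP activates, at 0.54 (SE 0.16, adjusted p = 0.018 in edgeR). The 2 that were lower were CSNK1D, a kinase of PER proteins, at -0.46 (SE 0.08, adjusted p = 6.7e-04), and NONO, a PER-binding protein, at -0.34 (SE 0.10, adjusted p = 0.0178). CLOCK, the usual partner of BMAL1, ranged from 8.30 to 33.2 CPM and had an r of 0.33 with BMAL1 and -0.40 with DBP.

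Outputs of the clock in heart and metabolism formed a second list of 20 genes, 18 of them tested. None passed in the dosing comparisons. By library name KCNIP2, a subunit of the transient outward potassium channel, was higher at 0.58 (SE 0.21). Lower were PDK4, which shuts pyruvate out of oxidation, at -2.84 (SE 0.78), KCNH2, a potassium channel, at -0.79 (SE 0.21), the lipase PNPLA2 at -0.63 (SE 0.13), TIPARP at -0.52 (SE 0.17) and the deubiquitinase USP2 at -0.48 (SE 0.14). The adjusted p of these 6 genes in edgeR ran from 0.00187 for PNPLA2 to 0.0472 for KCNIP2. The 5 of 18 that were lower stand beside 12.9% of all genes. Vehicle control 4 was the highest of all libraries in 7 of the 18, PDK4 among them, with 602.4 CPM against 122.5 CPM in the next. The share of all genes highest in that library is not given here, and KLF9 stands both in this list and among the glucocorticoid receptor targets.

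The 35 tested genes of both lists were also related to BMAL1 and to DBP, as a description, because those levels had served to choose the members. TSPAN4, a tetraspanin, had an r of -0.79 and a rho of -0.82 with BMAL1, and an r of 0.83 and a rho of 0.88 with DBP. Without the 2 libraries farthest from the median the r were -0.63 and 0.75, and within the M8 and M9 libraries -0.78 and 0.88. BHLHE41, a repressor that competes with BMAL1 for its sites, had an r of 0.86 and a rho of 0.67 with DBP, and its r was 0.53 without vehicle control 4 and multidose 4. No other listed gene reached 0.7 in size with either. The median r with BMAL1 was -0.02 for the clock genes and 0.15 for the outputs, against 0.0075 over all genes. With DBP the medians were -0.06 and -0.27, against -0.0027 over all genes.

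Among 11425 named genes with a mean of at least 1 CPM, those most like BMAL1 over the 17 libraries were EGR1 with an r of 0.73, MOSPD1 and CYP3A29 with 0.71 each, ZFP36 with 0.68 and BTG2 with 0.67. EGR1, BTG2 and ZFP36 are immediate early genes. Least like it were PER2, TSPAN4, the secreted protein C1QTNF2 with -0.78, the lysosomal channel MCOLN1 with -0.77, and TEF. Without vehicle control 4, EGR1 had 0.64, ZFP36 0.57, C1QTNF2 -0.72 and MCOLN1 -0.73.

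The genes most like DBP were the kinase DYRK3, BHLHE41, TSPAN4, the receptor LPAR6 and MMS22L, with r from 0.80 to 0.86, and DBP had an r of at least 0.7 with 0.252% of all genes and of -0.7 or lower with 0.195%. The lowest were the hormone STC1, the protease ADAMTS4, APOLD1, CHI3L2 and ZFP36, with r from -0.83 to -0.80. Most of this rested on vehicle control 4. Without it STC1 had -0.20, APOLD1 -0.17, CHI3L2 0.04 and LPAR6 0.25, while TSPAN4 kept 0.79 and BHLHE41 0.68. STC1 was at 80.0 CPM in vehicle control 4, and its mean over the libraries was 9.94 CPM.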

How the data were processed

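The authors deposited raw counts of reads per gene for 17 libraries in 1 table. Per the submitters' processing notes, the build was Sscrofa11.1 and the tools included HISAT2 2.1.0, Subread 1.6.2, Trimmomatic 0.33, SAMtools 1.7 and FastQC 0.11.7, while the strand setting and the release of the annotation were not stated. The 10 genes and the lists were chosen with earlier results of these data known.

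The counts were tested with edgeR 4.0.16 in R 4.3.3: filterByExpr, TMM scaling, 1 coefficient per dosing group over all libraries and two-sided quasi-likelihood tests with robust spread, adjusted by Benjamini-Hochberg over 15884 genes at 0.05. A second model had library name class alone. CPM use TMM-scaled totals, and log2 CPM carry a prior count of 2. The named genes are the members, genes of the clock lists that passed a test or had an r of at least 0.7 in size with BMAL1 or DBP, glucocorticoid targets where a library stood apart, and the 5 genes per side with the highest and lowest r with BMAL1 and DBP among named genes of at least 1 CPM. CLOCK and the overlapping genes were named in addition, after their values were seen. Correlations are given as descriptions. Permutation p-values were computed for the listed genes against BMAL1 and DBP, but they are not used, because those levels had served to choose the members. The pipeline was tested on simulated data. In the dosing comparisons it recovered 13.4 to 20.9% of 1.5-fold, 38.8 to 62.7% of 2-fold and 84.8 to 89.4% of 4-fold changes. The changes were planted in genes drawn at random, with no difference by name class. Each simulated dosing comparison called 106 to 117 genes, where the real ones called 0, so these rates may not hold there. They are averages over genes, and DBP, NR1D1, BMAL1 and PER2 varied more between animals than the median gene. A gene that was not called may therefore still differ by amounts such as these. Alternatives were RLE scaling, no filter, DESeq2 1.42.0, limma-voom (limma 3.58.1), name class as covariate, subsets, a replicate block and each library left out. Positions are RefSeq's on Sscrofa11.1, matched by symbol. Promoter and protein sequences were not used here.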

Additional observations from a re-analysis of the deposited data

Results flagged for a closer look

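In 3 of 30 gene-by-group sets, the most extreme animal stood farther from its neighbour than Dixon's 95% limit allows. The genes were chosen by these same levels, so the count is a description and not a test. DBP in vehicle control 4 was at 0.031 log2 CPM, with the next control at 2.98. PER2 in multidose 7 was at 2.70, with the next multidose animal at 3.81. CRY1 in single dose 1 was at 3.41, above the next single-dose animal at 2.84. The 3 values belong to the 3 libraries with the highest BMAL1. DBP and PER2 ran against BMAL1 over the libraries and CRY1 ran with it, so this in part restates those relations. Their causes were not tested.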

How the results depend on the processing

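Of 980 recomputed fold changes of members, 58 changed sign, 39 of them when a library was left out, 5 lost a call and 3 gained one, and the others kept both direction and side of the threshold. None of the sign changes concerned a called value. The name classes and dosing groups are partly confounded. BMAL1 rested on as few as 33 reads in a library, and DBP on 52.

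With name class as a covariate, multidose minus vehicle was 0.23 for NR1D1, -0.039 for NR1D2 and -0.095 for HLF, single dose minus vehicle was -0.0026 for DBP, and multidose minus single dose was -0.016 for both HLF and NPAS2. With M8 and M9 libraries only, multidose minus vehicle was 0.027 for NR1D1, -0.21 for NR1D2 and -0.13 for HLF, single dose minus vehicle was -0.070 for BMAL1, and multidose minus single dose was -0.059 for HLF, -0.12 for CIART, 0.0052 for BMAL1 and 0.054 for CRY1. Without the filter, single dose minus vehicle was -0.0049 for DBP, and with limma-voom it was 0.12 for PER2. By library name, CIART was -0.056 with limma-voom, and BMAL1 0.10 and CRY1 0.12 within the 12 dosed pigs. The cause was not tested.

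DESeq2 called 8 genes in multidose minus vehicle and 10 in single dose minus vehicle. By library name, 0 members were called without the filter (NR1D1 at an adjusted p of 0.0596, with 3315 of 25296 genes called), 2 by limma-voom (NR1D1 and HLF, with 5101 of 15884 genes called) and 0 among the 7 multidose pigs, where 723 genes passed against 3783. The arm correlation was -0.26 in the multidose animals and, as an alternative chosen after seeing the data, -0.27 for BMAL1 and NR1D1 alone, against -0.72 for BMAL1 and DBP alone, also chosen then.

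Leaving out each library in turn, multidose minus vehicle ranged from -0.0060 to 0.17 for NR1D2, -0.13 to 0.35 for TEF, -0.26 to 0.0028 for CIART, -0.56 to 0.11 for BMAL1 and -0.30 to 0.031 for NPAS2. Single dose minus vehicle ranged from -0.33 to 0.10 for PER2, -0.28 to 0.16 for DBP, -0.085 to 0.080 for HLF and -0.067 to 0.66 for BMAL1, with 0 to 1 genes called (1 without single dose 2). Multidose minus single dose ranged from -0.076 to 0.30 for CIART and -0.015 to 0.15 for NPAS2, with 0 to 1 genes called (1 without single dose 5). By library name, CIART ranged from -0.18 to 0.19, BMAL1 from -0.52 to 0.18, CRY1 from -0.24 to 0.049 and NR1D1 from -1.28 to -0.76, with 0 to 2 members called. Without vehicle control 3 or vehicle control 5, HLF was called too.

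The replicate numbers of the labels were read as names of animals and not as pairs. Of 15 same-numbered pairs, 4 had a correlation of deviations over 0.1, as did 20 of 80 other pairs. Of the 17 libraries, 1 correlated best with a library of its number. These counts cannot show whether animals were paired by design. With a replicate block, 1 gene was called in multidose minus vehicle and 0 in both others, and 0 members in each.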
